A study of Mus musculus with 7 samples.

Results

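Serpinb9, Serpinb6b, Serpinb1a and Serpinb1b are 4 clade B serpin genes, which encode intracellular protease inhibitors, and they lie close together on mouse chromosome 13 on the same side of Irf4. They were taken by symbol from a deposited table of 752 genes, in which the authors compared B cells from spleens of 3 Batf KO mice with those of 4 wild type mice. That table was selected on the FDR (false discovery rate) of this comparison, so the 4 genes were chosen by their difference between the genotypes in these same libraries. Their fold changes are given here as a description, with no test.

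Both genotypes are on the C57BL/6J background. The sources used here do not give the Batf KO allele or the age and sex of the mice. B cells were taken from spleens on magnetic columns and cultured for 6 h with 20 µg/mL LPS, the ligand of TLR4, and 20 ng/mL IL-4, in both groups alike. Paired-end libraries were made from total RNA. The design text also speaks of 2 replicates for each sample without saying what these are, and each of the 7 libraries was taken as 1 mouse.

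Serpins inhibit proteases by offering a reactive centre loop as bait: the protease cuts the loop, which folds into the body of the serpin and traps the enzyme. Clade B members lack a classical secretion signal and act mainly inside cells, where they protect the cell from proteases that leak from its own granules or lysosomes or arrive from outside. In the mouse, Serpinb9 inhibits granzyme B, Serpinb6b inhibits granzyme A, and Serpinb1a inhibits the elastase-like and chymotrypsin-like proteases of neutrophils. Serpinb1b is a close copy of Serpinb1a. BATF, the factor disrupted in the knockout, pairs with JUN proteins on DNA and there recruits IRF4 or IRF8.

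RefSeq promoter sequences (GRCm38.p6, 250 bases before to 50 after the start, plus strand) were found for 3 of the 4 genes, and none was found for Serpinb1a. They are shown because the 3 genes were higher together in Batf KO. Capitals, in Serpinb9, mark letters that match the core of an interferon-stimulated response element (ISRE), which interferon regulatory factors bind. The windows are chr13:33004291-33004590 for Serpinb9, chr13:32965011-32965310 for Serpinb6b and chr13:33083853-33084152 for Serpinb1b. GENCODE places the gene starts of Serpinb9 (33003250) and Serpinb1b (33078575) before these windows, and sequence at those starts was not searched.
Serpinb9: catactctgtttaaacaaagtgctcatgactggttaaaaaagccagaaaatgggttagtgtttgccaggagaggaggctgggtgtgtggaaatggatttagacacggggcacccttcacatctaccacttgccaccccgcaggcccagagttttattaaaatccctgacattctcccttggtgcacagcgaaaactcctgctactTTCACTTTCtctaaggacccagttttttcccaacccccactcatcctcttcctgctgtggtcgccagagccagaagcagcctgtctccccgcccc
Serpinb6b: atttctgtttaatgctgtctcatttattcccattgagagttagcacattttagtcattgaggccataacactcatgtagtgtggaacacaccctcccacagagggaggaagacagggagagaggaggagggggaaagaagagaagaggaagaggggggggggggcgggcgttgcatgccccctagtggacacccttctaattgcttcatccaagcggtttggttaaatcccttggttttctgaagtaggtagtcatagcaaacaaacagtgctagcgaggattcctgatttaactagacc
Serpinb1b: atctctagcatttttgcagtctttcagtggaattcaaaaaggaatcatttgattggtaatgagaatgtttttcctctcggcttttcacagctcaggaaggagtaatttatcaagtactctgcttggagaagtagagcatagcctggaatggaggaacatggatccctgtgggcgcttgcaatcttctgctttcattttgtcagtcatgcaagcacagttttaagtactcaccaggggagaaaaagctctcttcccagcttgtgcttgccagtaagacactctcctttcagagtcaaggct

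Each promoter was searched on both strands for TGANTCA, the element of AP-1 factors such as BATF with JUN, for GAAANNGAA, the core of the ISRE, and for TTCNNNGAA, an element of STAT factors. The 3 motifs do not contain one another. The AP-1 letters had 0 matches in the 3 windows, and they occur in 7.81% of all 32851 promoters of that length. Serpinb9 had 1 match to the ISRE letters, TTCACTTTC, at bases 206 to 214 of its window and read on the other strand. These letters occur in 8.56% of all promoters. The STAT letters, found in 8.30% of all promoters, had 0 matches in the 3 windows, and Serpinb6b and Serpinb1b matched none of the 3 motifs. The motifs were chosen with these sequences in view, after longer elements of the same factors had been searched.

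Batf itself was measured at 63.4, 70.3 and 65.8 CPM in the Batf KO libraries, against 315, 307, 333 and 322 CPM in the wild type libraries. CPM is the read count scaled to a common library total. The effective library size was 23675459 to 30844920 reads for Batf KO, against 24891094 to 44728937 for wild type. The B cell markers Ms4a1, which encodes CD20, and Blnk, an adaptor of the B cell receptor, were the 2 of 8 in the table. Together they stood at 1053 to 1112 CPM in Batf KO and 697 to 781 CPM in wild type, and the other 6 have no value here. For comparison, the table holds 3.81% of all genes the authors tested. Pairwise chi-square statistics of the counts were 16.2 to 23.0 per degree of freedom in Batf KO. In wild type they were 18.0 for replicates 1 and 2 and 20.2 for replicates 3 and 4, against 32.5 to 48.5 for the other wild type pairs. By the numbers in the sample labels, all Batf KO libraries fall between wild type replicates 1 and 2, while replicates 3 and 4 come after them. The labels give no batch, and what this order stands for was not tested. The 2 pairs of wild type libraries, replicates 1 and 2 and replicates 3 and 4, are therefore also given apart where that moved a value.

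All 4 serpin genes were higher in Batf KO. The table held 4 of the 28 clade B genes of the mouse, and the other 24 have no value here. The authors' deposited table holds 3.81% of the 19734 genes they tested, and 1.95% of the tested genes are in it as higher in Batf KO. These shares are set beside the 4 genes for reading only, since the same comparison chose them. In edgeR's fit the log2 fold changes were 1.25 (SE 0.12) for Serpinb9, 0.89 (SE 0.22) for Serpinb6b, 1.12 (SE 0.13) for Serpinb1a and 1.61 (SE 0.52) for Serpinb1b. Over all 752 genes of the table, the median log2 fold change in the authors' deposited values was 0.31 and the median size 0.68. Of the 4 genes, Serpinb1b came last in the authors' deposited table by FDR (0.0324). The last gene of the table, Prkcb, has an FDR of 0.0499, and genes beyond it have no value here.

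Serpinb9 (ENSMUSG00000045827, chr13:33003250-33017957, plus strand, GRCm38), the granzyme B inhibitor, had the most reads of the 4. It was measured at 96.3, 91.7 and 75.6 CPM in Batf KO, against 32.4, 39.0, 43.0 and 33.2 CPM in wild type. Every Batf KO library lay above every wild type library, and the lowest Batf KO value was 1.76 times the highest wild type value. Such separation does not set a gene apart in a table chosen by FDR. The protease genes Lgmn and Ctsa, with FDRs of 0.0373 and 0.0384, also had groups that did not overlap. The share of separated genes over the whole table was not counted. The means were 87.9 ± 10.8 CPM in Batf KO (SD, n = 3) and 36.9 ± 5.03 CPM in wild type (SD, n = 4), a 2.38-fold difference in the edgeR fit. It rested on 7232 reads in Batf KO and 5219 reads in wild type. Within each group the libraries differed by more than counting error: the coefficient of variation was 12.3% in Batf KO and 13.6% in wild type, where counting alone gives 2.04% and 2.77%. The FDR in the authors' deposited table is 2.31e-20, rank 28 of 752. RefSeq (GRCm38.p6) places a noncoding gene, Gm36181, at chr13:33000906-33005807, which begins before Serpinb9 and overlaps its first part, and without a stated strand setting the reads of both cannot be told apart there.

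Serpinb6b (ENSMUSG00000042842, chr13:32965209-32979067, plus strand), the granzyme A inhibitor, lies 24.2 kb before Serpinb9. Its levels were 45.7, 44.5 and 36.4 CPM in Batf KO, against 16.5, 17.5, 31.2 and 26.0 CPM in wild type. The groups did not overlap, but the lowest Batf KO library was only 1.16 times the highest wild type library. The means were 42.2 ± 5.08 CPM in Batf KO (SD, n = 3) and 22.8 ± 7.06 CPM in wild type (SD, n = 4), which is 1.85-fold. The wild type libraries fell into a low pair, replicates 1 and 2, and a high pair, replicates 3 and 4, which is the split that the counts of all listed genes also show. Replicates 3 and 4 together stood at 1.68 times replicates 1 and 2, the 13th highest such ratio among the 667 genes whose mean CPM reached 1. Over these 667 genes the median of that ratio was 1.01 and its 90th percentile was 1.25. Against replicates 1 and 2 alone the log2 fold change of Serpinb6b was 1.31 (SE 0.13), and against replicates 3 and 4 alone it was 0.56 (SE 0.14). The part of this split in the result was not tested. The FDR in the authors' deposited table is 0.000218.

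Serpinb1a (ENSMUSG00000044734, chr13:32842092-32851185, minus strand), the inhibitor of neutrophil proteases, was the most even of the 4 within wild type. It was measured at 10.1, 11.3 and 9.59 CPM in Batf KO, against 4.84, 4.58, 5.16 and 4.34 CPM in wild type. No library of one group reached the other, and the lowest Batf KO value was 1.86 times the highest wild type value. The means were 10.3 ± 0.895 CPM in Batf KO (SD, n = 3) and 4.73 ± 0.354 CPM in wild type (SD, n = 4), a 2.17-fold difference. Its coefficient of variation in wild type, 7.47%, was close to the 7.73% that counting error alone gives at 670 reads over 4 libraries. In Batf KO the coefficient was 8.67%, above the 5.97% from counting alone. The ratio of wild type replicates 3 and 4 to replicates 1 and 2 was 1.01, so this gene did not show the split seen in Serpinb6b. The FDR in the authors' deposited table is 7.79e-09.

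Serpinb1b (ENSMUSG00000051029, chr13:33078575-33094380, plus strand) was near the lower limit of what these libraries measure. It had 16, 24 and 11 reads in Batf KO, against 4, 5, 6 and 12 reads in wild type. As CPM these are 0.519, 0.891 and 0.465 in Batf KO, against 0.100, 0.166, 0.134 and 0.482 in wild type. The groups overlapped, because wild type replicate 4 lay above the lowest Batf KO library. Over the summed reads, 51 in Batf KO and 27 in wild type, the ratio per library size was 3.24. Its exact 95% interval of 1.99 to 5.37 covers counting error only, and it is no test, since the same comparison chose the gene. The libraries varied by more: the coefficient of variation was 37.1% in Batf KO and 79.9% in wild type, where counting alone gives 24.3% and 38.5%. Without wild type replicate 4 the ratio was 4.79 (2.65 to 9.17). The gene is below the mean CPM of 1 asked of the other fits, so its log2 fold change of 1.61 came from a fit of all 752 genes.

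**Figure D1:**
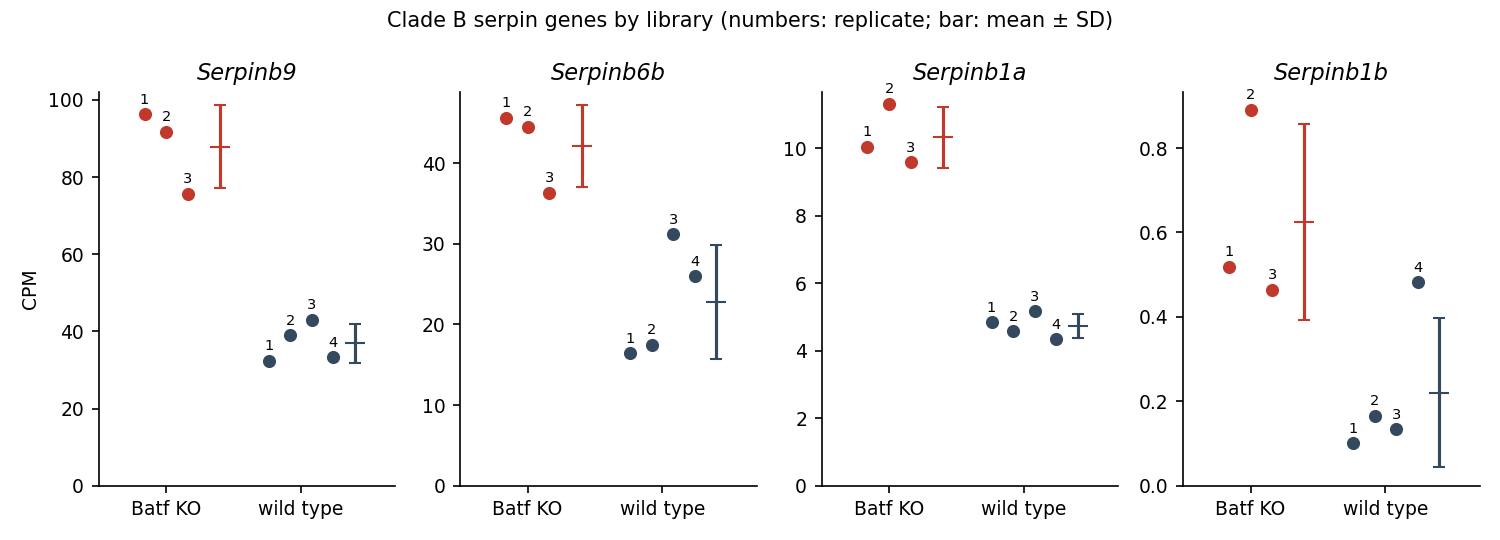
CPM of each gene in each library, with Batf KO left and wild type right in each panel; points are libraries with their replicate number, bars are mean ± SD, and each vertical axis starts at 0 with its own scale. Batf KO libraries lie above all wild type libraries for Serpinb9, Serpinb6b and Serpinb1a, while wild type replicate 4 of Serpinb1b (0.482 CPM) lies above Batf KO replicate 3 (0.465 CPM).

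Batf KO replicate 3 was the lowest of its group for each of the 4 genes. Summed over the 4 genes, the level was 122 to 153 CPM in Batf KO and 53.8 to 79.6 CPM in wild type. Serpinb9 made up 61.8% to 63.1% of that sum in Batf KO libraries, against 51.9% to 63.7% in wild type libraries. Serpinb6b made up 29.8% to 30.0% in Batf KO, a narrow range, and 28.6% to 40.6% in wild type, where replicates 3 and 4 held the high values.

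Levels of different genes were compared per kb of merged exon (GENCODE M21). Serpinb9 stood at 25.2 ± 3.10 CPM per kb in Batf KO (SD, n = 3) and 10.6 ± 1.44 CPM per kb in wild type (SD, n = 4). Serpinb6b stood at 18.7 ± 2.24 CPM per kb in Batf KO and 10.1 ± 3.12 CPM per kb in wild type. In wild type these levels overlapped, as Serpinb6b ran from 7.27 to 13.8 CPM per kb and Serpinb9 from 9.28 to 12.3 CPM per kb. Their order within a library followed the wild type split. Serpinb9 was the higher in replicates 1 and 2 (9.28 against 7.27, and 11.2 against 7.74). Serpinb6b was the higher in replicates 3 and 4 (13.8 against 12.3, and 11.5 against 9.51). In Batf KO, Serpinb9 libraries at 21.7 to 27.5 CPM per kb lay above Serpinb6b libraries at 16.1 to 20.2 CPM per kb. Serpinb1a followed at 4.48 ± 0.389 CPM per kb in Batf KO and 2.05 ± 0.154 CPM per kb in wild type. Serpinb1b was last, at 0.324 ± 0.120 CPM per kb in Batf KO and 0.115 ± 0.0916 CPM per kb in wild type. The order of Serpinb6b, Serpinb1a and Serpinb1b was the same in each of the 7 libraries. The sources used here do not name the authors' annotation, so the lengths they counted over may differ.

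**Figure D2:**
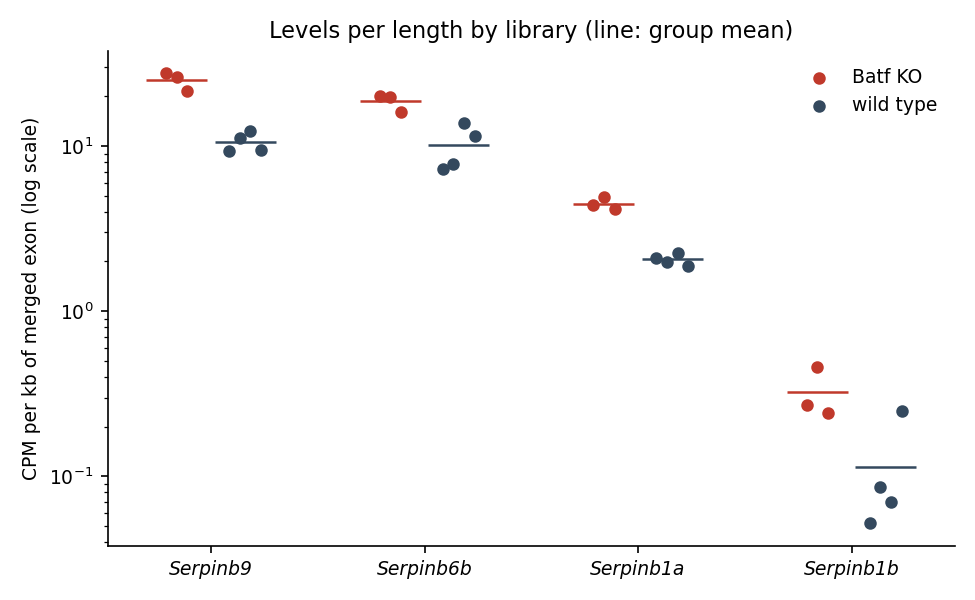
Level of each gene per kb of merged exon on a log axis, with Batf KO (red, left) and wild type (dark, right); points are libraries and lines are group means. Serpinb9 and Serpinb6b overlap in wild type, at means of 10.6 and 10.1 CPM per kb, and Serpinb1b is lowest in both groups.

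Clade B genes arose by repeated copying, so reads of one gene can match another. Of all 50-base windows of the main transcript, 3.42% in Serpinb1a, 3.52% in Serpinb1b, 3.13% in Serpinb6b and 0.380% in Serpinb9 occurred exactly in a transcript of another gene. None of the 100-base windows did. The partners of Serpinb1a were Serpinb1c, Serpinb1b and a pseudogene, and those of Serpinb1b were Serpinb1a and Serpinb1c. The sources used here do not say how the counting treated reads that match 2 genes. Serpinb1a had 842 reads in Batf KO and 670 in wild type, against 51 and 27 for Serpinb1b. Whether reads passed between them was not tested.

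The longest stretch that Serpinb1a and Serpinb1b share exactly is 81 bases in exon 6 of 7, within the coding sequence of both. It is shown with 20 bases on each side, the shared letters in capitals, at chr13:32845325-32845445 (minus strand) in Serpinb1a and chr13:33091683-33091803 (plus strand) in Serpinb1b (GENCODE transcripts, GRCm38). A total of 3 of the 121 bases differ.
Serpinb1a: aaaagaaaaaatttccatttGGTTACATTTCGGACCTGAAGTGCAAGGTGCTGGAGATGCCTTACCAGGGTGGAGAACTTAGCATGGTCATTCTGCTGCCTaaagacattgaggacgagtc
Serpinb1b: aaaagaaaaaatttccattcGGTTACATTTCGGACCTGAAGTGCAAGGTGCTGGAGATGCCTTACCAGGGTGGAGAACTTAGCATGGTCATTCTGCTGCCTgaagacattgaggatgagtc

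Serpinb6b and Serpinb9 are more distant, and their longest exact stretch is 17 bases in the last exon of each. It codes for the hinge of the reactive centre loop, the part of a serpin that lets the cut loop insert. It is shown likewise, at chr13:32978187-32978243 in Serpinb6b and chr13:33015679-33015735 in Serpinb9, both on the plus strand. After the capitals, toward the part of the loop that proteases bind, the letters of the genes diverge, and 13 of the 57 bases differ in all.
Serpinb6b: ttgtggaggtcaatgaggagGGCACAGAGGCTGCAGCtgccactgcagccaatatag
Serpinb9: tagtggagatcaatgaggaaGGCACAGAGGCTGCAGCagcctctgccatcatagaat

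Irf4 encodes a partner of BATF and lies 2.08 Mb before Serpinb1a, the first of the 4. It was measured at 1389, 1566 and 1371 CPM in Batf KO, against 608, 597, 716 and 727 CPM in wild type, a log2 fold change of 1.12 (SE 0.09). Its groups did not overlap, which does not set a gene apart in a table chosen by FDR. Its log2 fold change was that of Serpinb1a, but the wild type libraries of the genes differed. For Irf4, wild type replicates 3 and 4 stood at a mean of 721 CPM and replicates 1 and 2 at 603 CPM. That ratio ranks 96 among the 667 genes. Serpinb1a did not show this split, with means of 4.75 and 4.71 CPM. The 11 protein-coding genes annotated between Irf4 and Serpinb1a are not in the table and have no value here. From Serpinb1a to the end of Serpinb1b the cluster spans 252 kb with 6 protein-coding clade B genes, of which 4 are in the table and Serpinb1c and Serpinb9b are not. None of the 10 protein-coding clade B genes beyond Serpinb1b on chromosome 13, from Serpinb9c to Serpinb6a, is in the table. Neither is any of the 12 on chromosome 1. A gene can be missing from the table because it did not differ, because it had few reads or because it varied, and these cannot be told apart here.

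In the 30 to 35 Mb window of chromosome 13, 45 protein-coding genes are annotated and 7 genes are in the table, all 7 higher in Batf KO. Beside Irf4 and the 4 serpin genes these are Dusp22, a phosphatase gene, and Uqcrfs1, which encodes the Rieske protein of respiratory complex III. The window was fixed with the choice of the serpin genes near Irf4, so their presence in it is no finding about the region. Over all 19734 tested genes, 3.81% are in the table and 1.95% are in it as higher in Batf KO. Dusp22 stood at 16.9 ± 2.25 CPM in Batf KO (SD, n = 3) and 10.9 ± 1.68 CPM in wild type (SD, n = 4). Uqcrfs1 stood at 192 ± 14.7 CPM in Batf KO (SD, n = 3) and 145 ± 16.3 CPM in wild type (SD, n = 4). Their log2 fold changes, 0.63 (SE 0.15) and 0.40 (SE 0.10), were smaller than those of Irf4 and the serpin genes. For Dusp22 and Serpinb6b (0.89, SE 0.22), however, the ranges of 1 SE overlap. On the whole chromosome 18 genes in the table were higher and 13 lower. The nearest ones outside the window are Carmil1 at 24.0 Mb, with a log2 fold change of 0.79 in the authors' deposited table, and Atxn1 at 45.5 Mb, with -1.07.

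**Figure D3:**
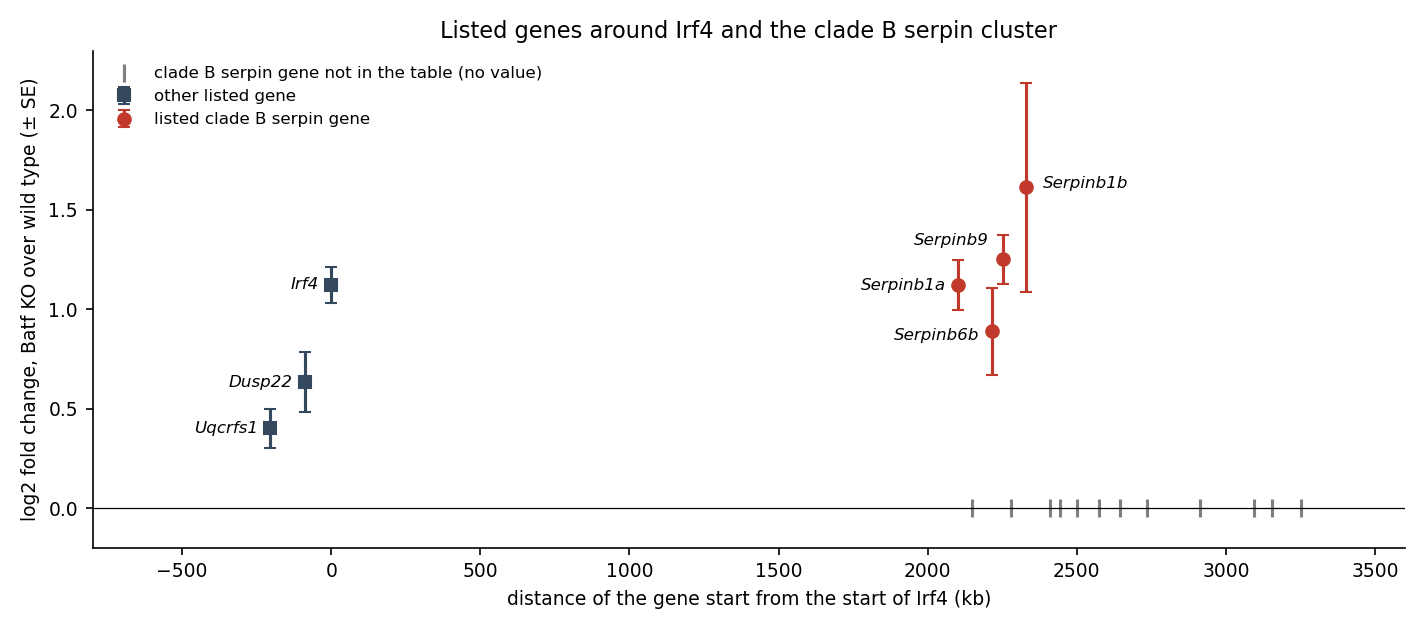
Log2 fold change (Batf KO over wild type, ± SE) of the 7 listed genes in the window against the distance of their start from the start of Irf4 in kb; grey ticks on the zero line mark protein-coding clade B genes that are not in the table and have no value. Irf4 and the 4 serpin genes lie between 0.89 and 1.61, and Dusp22 and Uqcrfs1 at 0.63 and 0.40.

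Genes in the table were ranked by how near their profile over the 7 libraries came to each serpin gene, as the root mean square difference of log2(CPM + 0.5) values centred on each gene's own mean. Every gene in the table had passed the same comparison, and a like fold change alone brings 2 profiles near. For Serpinb1a the nearest of 666 genes were Sema7a, a membrane-anchored semaphorin gene, at 0.097, Irf4 at 0.124 and the cation channel gene Trpm5 at 0.125. For Serpinb9 they were the Wnt ligand gene Wnt10a at 0.130, the formin gene Fmnl2 at 0.149 and Serpinb1a at 0.162, with Irf4 sixth at 0.181. For Serpinb6b they were Epcam, which encodes an adhesion molecule, at 0.145, the chaperone gene Erp44 at 0.195 and the calcium channel gene Orai1 at 0.197. Epcam stood at 29.6, 24.7 and 22.0 CPM in Batf KO, against 10.2, 10.7, 18.1 and 20.3 CPM in wild type, so it had the same low and high pairs of wild type libraries. Serpinb6b lay at 0.293 from Serpinb1a and 0.297 from Serpinb9, with Irf4 in place 11 at 0.236. For Serpinb1b the nearest were Crim1 at 0.140, Lacc1 at 0.177 and Pik3r3 at 0.181. The pseudocount of 0.5 exceeds most of its CPM values. On the log2(CPM + 0.5) scale its log2 fold change was 0.65, against 1.61 in the edgeR fit, so its distances rest on shrunken differences. On that scale Serpinb1b was the farthest from the other serpin genes, at 0.340 from Serpinb6b, 0.341 from Serpinb1a and 0.430 from Serpinb9. Irf4 was in place 140 of 667 at 0.306. These places are not read as a difference in profile.

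Genes of proteases, including those that serpins act on, were taken from fixed lists and are set beside the 3.81% of all tested genes that the table holds. None of the granzymes, perforin or the neutrophil proteases of the list was there, and of its 15 genes the 1 in the table was Srgn, which encodes the proteoglycan that packs granule proteases. Srgn was lower in Batf KO, at 221, 191 and 182 CPM, against 247, 256, 400 and 328 CPM in wild type. It also showed the wild type split. Replicates 3 and 4 stood at a mean of 364 CPM and replicates 1 and 2 at 251 CPM. That ratio of 1.45 ranks 30 among the 667 genes, so the size of the Srgn difference depends on the wild type pair. Of 14 cathepsin and related lysosomal protease genes, 3 were in the table. Ctsh, the cathepsin H gene, was lower at 31.1 ± 1.80 CPM in Batf KO (SD, n = 3) and 61.4 ± 6.33 CPM in wild type (SD, n = 4), a log2 fold change of -0.98 (SE 0.10). Ctsa, a lysosomal carboxypeptidase gene, was also lower, with a log2 fold change of -0.37 (SE 0.09), whereas Lgmn, the asparaginyl endopeptidase gene, was higher at 0.32 (SE 0.08). Of 14 caspase and gasdermin genes, Casp8, an initiator of apoptosis, was lower at -0.66 (SE 0.07) and Casp4, an inflammatory caspase gene, was higher at 0.47 (SE 0.12). None of the 20 other serpin and cystatin genes of the list was in the table.

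Serpinb9 and Serpinb1a are also abundant in other spleen cells, cytotoxic lymphocytes and neutrophils, which a column can leave among B cells. None of 12 neutrophil markers was in the table, which holds 3.81% of all tested genes, so their absence does not measure such cells. Of 12 T and NK markers 1 was, Cd8b1, at 5.24 to 7.42 CPM in Batf KO and 1.48 to 2.59 CPM in wild type. Of 8 macrophage and dendritic markers 1 was, Zbtb46, at 73.6 to 89.6 CPM in Batf KO and 47.4 to 65.6 CPM in wild type. The remaining markers have no value here, so their summed level and zeros could not be given, and the part of such cells in the serpin values was not tested. In bulk RNA, more cells of a type and more RNA per cell cannot be told apart.

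The direction of all 4 genes was the same under each alternative that gave a value. For Serpinb9, Serpinb6b and Serpinb1a the groups do not overlap. Leaving out libraries or changing the pseudocount could therefore not reverse them, and only the size of change is informative there. Serpinb9 ran from 1.18 to 1.35 on the log2 scale over 15 alternatives and Serpinb1a from 0.98 to 1.17. Serpinb6b ran from 0.56 to 1.31, with both ends set by which pair of wild type libraries was used. Serpinb1b ran from 0.41 to 2.23 over 13 alternatives.

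**Figure D4:**
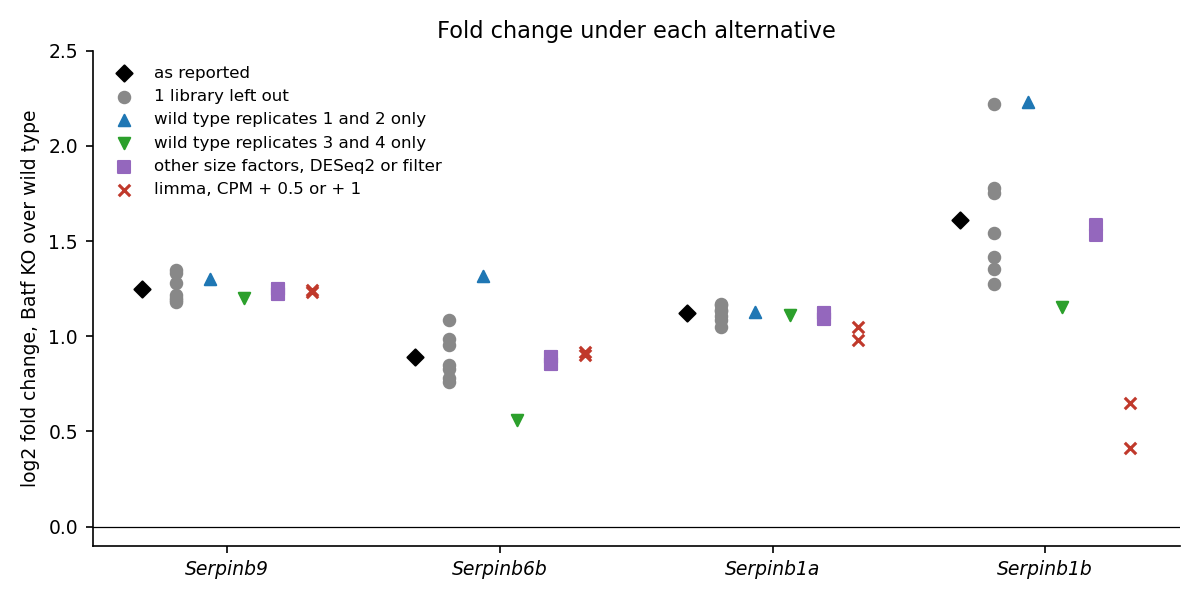
Log2 fold change (Batf KO over wild type) of each gene as reported and under each alternative, by kind of alternative. All points lie above 0; Serpinb9 and Serpinb1a stay close to their reported values, while Serpinb6b moves with the wild type pair used and Serpinb1b with the pseudocount and with single libraries.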

How the data were processed

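Build mm10 and the tools edgeR 3.03, HTSeq 0.5.3p7 and TopHat2 2.0.6 are named, without roles, per the submitters' processing notes. The sources used here do not give the annotation, the strand setting or how reads with more than 1 mapping place were handled. Per the file headers, the deposited table gives a read count per gene and library and the CPM the authors made from it. The authors' comparison is given as a p-value, an FDR, a likelihood ratio (a score) and 2 log2 values, the fold change and the mean CPM, per the file headers. The table was found to hold only genes with an FDR under 0.05, and the ratio of FDR to p-value gives 19734 genes tested.

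Effective library sizes were recovered as count divided by CPM. Counts of the 667 genes whose mean CPM reached 1 (85 fell below) were fitted with the quasi-likelihood model of edgeR 4.0.16 (R 4.3.3) on all 7 libraries, and Serpinb1b in a fit of all 752 genes. The SE is the log2 fold change divided by the square root of F. No p-value of this fit is given, because the contrast chose the genes. The genes, lists and alternatives were chosen with earlier results of these data known. Named genes are the 4 serpin genes, Batf, Irf4, genes of the fixed lists found in the table, listed genes in the window on chromosome 13, and the 3 nearest profiles per serpin gene. Positions come from GENCODE M21 (GRCm38, also called mm10), which held 742 of the 752 identifiers. GENCODE's Gm11397 was counted as Serpinb9h, its RefSeq name. The replicate spread is between libraries, and that these are separate mice rests on the labels' numbers.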

Additional observations from a re-analysis of the deposited data

Results flagged for a closer look

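In wild type replicate 3, Dusp22 stood at 13.4 CPM, apart from 9.84 to 10.1 CPM in the other 3 wild type libraries. Divided by the whole range of the 4 values, its gap to the nearest of them exceeds the 95% critical value of Dixon's test. Chance flags about 1 in 20 groups, and 1 was found among 28 sets of wild type values. Serpinb1b in wild type replicate 4, at 0.482 CPM, came just short of the critical value, with a gap of 0.828 of the range. Groups of 3 Batf KO libraries were not examined.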

How the results depend on the processing

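None of the 4 fold changes reversed in the 58 values that the alternatives gave, and 50 of these moved by less than 1 SD between replicates. A choice of libraries could not have reversed Serpinb9, Serpinb6b or Serpinb1a, whose groups do not overlap. With limma on log2(CPM + 1) Serpinb1a gave 0.98, and Serpinb1b gave 0.65 with log2(CPM + 0.5) and 0.41 with log2(CPM + 1), where the added constant exceeds most of its values. With wild type replicates 1 and 2 only, Serpinb6b gave 1.31 and Serpinb1b 2.23, and with replicates 3 and 4 only Serpinb1b gave 1.16. With replicates 3 and 4 only Serpinb6b gave 0.56, against 0.89 as reported. That counts as less than 1 SD because the SD of this gene is 0.36, which includes the split between the wild type pairs. The cause of these moves was not tested. With a library left out, log2 fold changes ran from 1.05 to 1.17 for Serpinb1a, 0.76 to 1.08 for Serpinb6b, 1.18 to 1.35 for Serpinb9 and 1.27 to 2.22 for Serpinb1b. The highest of Serpinb1b came without wild type replicate 4, a fold of 4.65 against 3.06 with it. Filters on low counts at a mean CPM of 1 or 5 left Serpinb1b out, so they gave it no value. No paired analysis was done because the labels give no pairing of mice between the genotypes. Depth limits Serpinb1b, with at most 24 reads in a library.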
